A study of Mus musculus with 92 samples.

Results

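Small intestinal organoids of the mouse kept with 10 µM of A-485 for 4 days were compared with organoids of the same lines kept with 5 µM, to find the genes that respond only at the highest dose tested. A-485 is a small molecule that blocks the catalytic activity of the acetyltransferases p300 and CBP. The comparison takes 8 of the 92 libraries of the study, chosen by the dose in their labels and paired by organoid line, with 4 lines at each dose. Line 1 is labelled Eif4g2(+/+), Rosa26(CreER), and lines 2, 3 and 4 are labelled Eif4g2(flox/flox), Rosa26(CreER), so that all 4 carry a tamoxifen-dependent Cre recombinase expressed from the ubiquitous Rosa26 locus. The series' design text calls these organoids wild-type, no 4-hydroxytamoxifen is listed for the dose series, and Eif4g2 was read in every library. All cultures grew in ENR medium, which holds EGF, Noggin and R-spondin. Libraries of the same 4 lines kept with DMSO, the solvent, or with 3 µM of A-485 gave the lower end of the dose series, so that 16 libraries entered the fit. The study as a whole concerns the translation factor gene Eif4g2 in crypts, villi, organoids and fetal spheroids of the mouse intestine. There was 1 culture per line and dose, and the labels do not say from how many mice the lines came, so the p-values measure the spread between these cultures.

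p300 and CBP acetylate the tails of histones at enhancers and promoters, and the acetylated sites are read by bromodomain proteins that help RNA polymerase to start and elongate. Genes that mark a cell type often depend on large enhancers and on lineage transcription factors that recruit these enzymes. In the small intestine, stem cells at the crypt base give rise to absorptive enterocytes and to secretory goblet, Paneth, enteroendocrine and tuft cells, and factors of the HNF4, CDX and GATA families keep the enterocyte programme on.

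The 8 libraries held from 8652040 to 16436145 counted reads, and the 10 µM library of line 4 was the shallowest. Epithelial markers were high, with a summed level of 9 of them between 12761 and 15862 CPM, the reads of a gene scaled to a common library size, at 5 µM and between 13252 and 17627 at 10 µM. Stromal, endothelial and neural markers were near 0 and immune markers were low but present. These sums hold only the markers that passed the low-count filter. The 2 of 14 stromal and muscle markers that passed summed to 0 to 2.06 CPM at 5 µM and to 0 to 0.57 at 10 µM. The 3 of 11 endothelial and neural markers summed to 0.85 to 2.22 and then 0 to 0.66. The 3 of 14 immune markers summed to 19.1 to 25.9 and then 24.4 to 37.3. Cd14 made up most of the immune sum, with a mean of 19.3 CPM at 5 µM and 27.0 at 10 µM, while 11 of the 14, the leukocyte marker Ptprc among them, were below the low-count filter and 0 of the other 3 were called between the doses, though Cd14 was called higher without line 1 or its 10 µM library. The part of immune cells in the results was not tested. Cytosolic ribosomal protein genes took 3.02% ± 0.342 of the reads at 5 µM and 2.18% ± 0.165 at 10 µM (SD, n = 4), a lower share in all 4 lines. An exact sign-flip permutation test, two-sided, gave an adjusted p of 0.208 over 5 library measures, and 4 pairs cannot reach the threshold of 0.05 in this test. The mitochondrial share of line 4 was above that of the other lines at both doses, at 3.44% against 2.27 to 2.46% at 5 µM and 3.23% against 2.15 to 2.25% at 10 µM.

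The genes of both target enzymes, and Eif4g2, were not called. Ep300, which encodes p300, was at 239, 212, 253 and 353 CPM in lines 1 to 4 at 5 µM and at 249, 242, 288 and 359.6 CPM at 10 µM. Its fitted log2 fold change was 0.11 ± 0.09 (standard error, SE, over 4 lines), with an adjusted p of 0.384 in edgeR's quasi-likelihood test with Benjamini-Hochberg adjustment, the test used throughout. Crebbp, which encodes CBP, had a log2 fold change of 0.02 ± 0.10 (SE) with an edgeR adjusted p of 0.933, and Eif4g2 one of 0.17 ± 0.09 with 0.191. In a fit of the 8 libraries alone Eif4g2 was called, at a log2 change of 0.15 (adjusted p = 0.0396, edgeR). For all 3 genes the 95% interval of the log2 change stayed within ±0.5.

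Going from 5 to 10 µM changed 3228 of 13724 tested genes at an adjusted p under 0.05, a share of 23.5%, of which 1276 (9.3%) were higher and 1952 (14.2%) lower. An unadjusted p under 0.05 was reached by 4674 genes. The split by direction depended on the settings. It was 1676 higher and 1816 lower when libraries were scaled by their totals alone, and 1814 and 2127 in a fit of the 8 libraries alone. Without the pairing by line it was 884 and 1708. The falls were deeper than the rises. Among called genes the median size was 0.51 on the log2 scale for those that rose and 1.16 for those that fell. A log2 fold change of at least 2 was reached by 34 rises (0.248% of tested genes) and 703 falls (5.12%), and 76 of the genes called lower had no read in any 10 µM library. The median over all tested genes was close to 0. The scaling of the libraries holds the bulk of genes near 0, so this median tests nothing, and all changes are relative to the other genes. Leaving out line 2 or line 3 at all doses lowered the number called to 1974 or 1816. The rises depended more on single lines, with 752, 617, 523 and 1919 called higher without lines 1, 2, 3 and 4, and 816 without the 10 µM library of line 3.

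**Figure D1:**
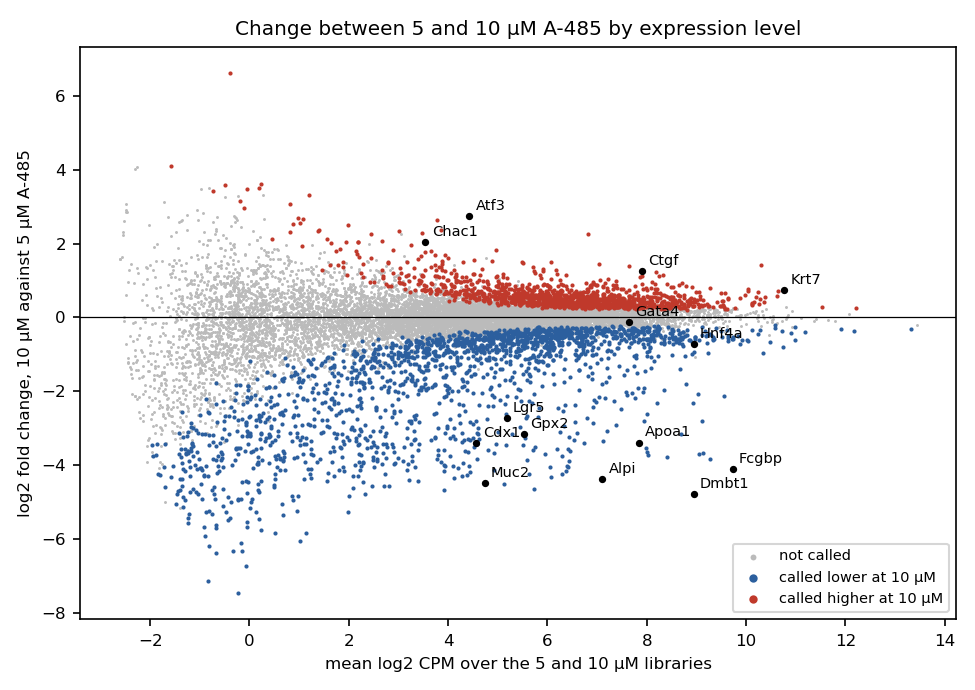
Each point is a tested gene with at least 1 read at 10 µM, placed by its mean log2 CPM over the 8 libraries (x axis) and its fitted log2 fold change at 10 against 5 µM (y axis), grey where not called, red where called higher and blue where called lower. The 627 drawn falls of at least 2 spread over a wide range of levels, with Dmbt1 and Fcgbp among the most abundant, while only 34 rises reach that size.

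Most of these genes were already on the move at lower doses. Of the 1276 genes called higher at 10 µM, 963 (75.5%) had also been called higher at 5 µM against DMSO, 249 (19.5%) had not been called there and 64 (5.02%) had been called lower. Of the 1952 called lower, 1241 (63.6%) had been called lower at 5 µM, 24.8% had not been called and 226 (11.6%) had been called higher. The background at 5 µM against DMSO was 54% of tested genes called, 26.3% higher and 27.7% lower. These contrasts share the 5 µM libraries, so their counts are not independent of each other. Leaving out line 3 took the counts of rises to 421, 86 and 16 and those of falls to 806, 342 and 145, in the order just given, and leaving out line 2 took them to 479, 118 and 20 and to 800, 401 and 156. A test of the difference between the steps, from 5 to 10 µM and from DMSO to 5 µM, called 2824 genes (20.6%), 950 (6.92%) with the more positive and 1874 (13.7%) with the more negative change at the last step.

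A stricter rule picked out genes whose fall lay mostly at 10 µM, with at most small changes before it. It asked for a called log2 fall of at least 1 from 5 to 10 µM, a called fall from DMSO to 10 µM, a called difference between the steps, and 95% intervals of the changes at 3 and at 5 µM against DMSO that stayed within a log2 change of ±1. This rule named 128 genes that fell and 1 that rose. Of all tested genes 7.79% met the first limit downward and 1.03% met it upward, and 34.6% were called lower at 10 µM than with DMSO. The 128 had a median log2 change against DMSO of -0.08 at 3 µM, -0.10 at 5 µM and -2.09 at 10 µM. Small earlier changes were within the rule. Of the 128, 18 were called lower than DMSO at 3 µM and 23 at 5 µM, 32 at either dose. Over all tested genes 12.5% were called lower at 3 µM and 27.7% at 5 µM. Among the 32 was Slc3a1, a carrier subunit gene (log2 changes of -0.72 and -0.55). At 5 µM 19 of the 128 were called higher, beside 26.3% of all tested genes. As the rule chose the genes by these values, the medians and counts describe the group and test nothing. With intervals held within ±0.5 the rule named 10 falls and 0 rises, and with the bound of ±1 it named 83 falls without the pairing by line, 74 without line 2 and 80 without line 3. The count of 1 rise went up to 5 when the 10 µM library of line 1 was left out and to 4 without line 4. The gene that rose was Tbc1d24, a regulator of vesicle traffic. It was at 18.3, 26.1, 27.3 and 23 CPM in lines 1 to 4 at 5 µM and 37.6, 55.2, 52.5 and 57.5 at 10 µM. Its mean was 31.1 CPM with DMSO, 22.2 at 3 µM, 23.7 at 5 µM and 50.7 at 10 µM. The rise of 1.09 on the log2 scale thus began from a level below that with DMSO (-0.40).

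**Figure D2:**
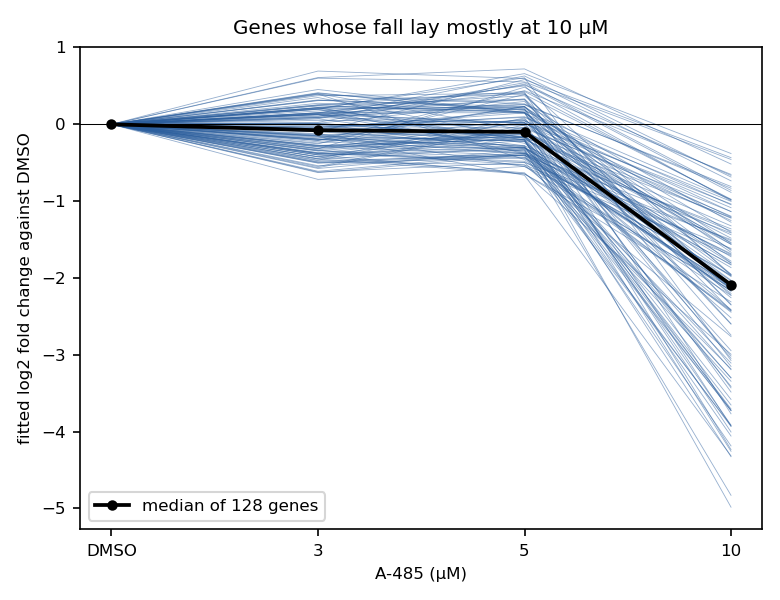
Thin lines show the fitted log2 fold change against DMSO (y axis) of each of the 128 genes named by the rule at 3, 5 and 10 µM of A-485 (x axis), and the black line their median. The lines stay between -0.717 and 0.721 up to 5 µM, as the rule requires, and end between -0.38 and -4.98 at 10 µM.

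Several members are known as enterocyte genes, and these are described first, with no test that the group is rich in them. Alpi, the intestinal alkaline phosphatase of the brush border (chr1:87098002-87101606, minus strand, GRCm38), was at 613, 674, 553 and 594 CPM with DMSO, at 523, 720.3, 882 and 630.3 at 5 µM and at 23.2, 73, 36.6 and 9.64 at 10 µM in lines 1 to 4. The values with DMSO and at 5 µM overlapped, those at 10 µM lay far below both in every line, and the deepest fall was in line 4. The log2 fold change from 5 to 10 µM was -4.38 ± 0.36 (SE), with an edgeR adjusted p of 1.13e-05, against 0.15 with 0.745 from DMSO to 5 µM.

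Dmbt1, a secreted mucosal defence protein (chr7:131032053-131121630), fell the most of the group, from 3756, 3202, 2679.9 and 1754 CPM at 5 µM to 155, 206, 69.4 and 27.5 at 10 µM. Every line lost most of the transcript, and the log2 fold change was -4.78 ± 0.36 (SE, edgeR adjusted p = 7.05e-06). Prap1, a secreted protein of the upper intestinal epithelium, went from 211, 162, 282 and 99.4 to 6.02, 12.2, 11.8 and 2.33 CPM, again without overlap and at -4.50 on the log2 scale. Over all tested genes 22.5% had groups that did not overlap, in either direction. Apoa1, the main apolipoprotein of high-density lipoprotein, went from 462, 1042, 1432 and 484.82 to 71.4, 119.9, 87.7 and 30.7 CPM. It was more uneven between lines at 5 µM than Alpi, and its highest 10 µM value still lay below its lowest 5 µM value.

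Of the 10 deepest falls in the group among genes whose log2 CPM averaged 3 or more, the other members were enzymes and carriers. They were the cytochromes Cyp2c65 (-4.24) and Cyp2c66 (-3.69), the sulfate carrier Slc13a1 (-4.18), the glucuronosyltransferase Ugt2a3 (-4.12), the sulfotransferases Sult6b2 (-4.03) and Sult1b1 (-3.84) and the peptide carrier Slc15a1 (-3.87), all given as log2 fold changes from 5 to 10 µM. Slc15a1, which encodes PEPT1, was at 19.6, 47, 53.6 and 49.3 CPM at 5 µM and at 3.44, 4.36, 1.79 and 0.776 at 10 µM. Cyp2c65 and Cyp2c66 are close paralogs, so reads may have been split between them. Further members were Npc1l1, the cholesterol uptake carrier, and Abcg5, which returns sterols to the lumen. Their log2 fold changes were -3.10 and -2.99. In bulk RNA, fewer cells of a type and less RNA per cell cannot be told apart, for these genes and for the cell type genes that follow.

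Transcription factors were among the 128 too. Hnf4g, an enterocyte nuclear receptor, went from 96.9, 168, 178 and 148 to 24.9, 22.1, 21.8 and 18.9 CPM, a log2 change of -2.69 ± 0.18 (SE) against -0.50 from DMSO to 5 µM. Its 4 values at 10 µM lay close together. Further members, picked here after their values were seen, were Foxa2 and the bile acid receptor gene Nr1h4, with changes of -1.97 and -1.32.

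Promoters of these genes are shown for 3 of the 4 group members whose promoter held the HNF4 motif CAAAGTCCA, and for a gene that rose. Each sequence runs 5′ to 3′ along the gene, from 250 bases before to 50 after the annotated start, and comes from RefSeq on GRCm38.p6. The positions are chr1:87101557-87101856 (minus strand) for Alpi, chr17:85028097-85028396 (plus strand) for Slc3a1, which encodes a subunit of a dibasic amino acid carrier, chr19:39060756-39061055 (plus strand) for Cyp2c65 and chr7:45526219-45526518 (minus strand) for Ppp1r15a. Capitals mark CAAAGTCCA in the first 3 and the CDX2 motif TTTATNG in Alpi and Slc3a1, and the cAMP response element TGACGTCA in the last.
Alpi: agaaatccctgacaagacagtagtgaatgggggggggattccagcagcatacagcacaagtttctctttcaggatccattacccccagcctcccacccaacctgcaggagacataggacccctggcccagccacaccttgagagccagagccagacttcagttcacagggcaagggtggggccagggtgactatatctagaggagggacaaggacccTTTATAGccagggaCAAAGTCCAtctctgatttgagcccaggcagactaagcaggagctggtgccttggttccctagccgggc
Slc3a1: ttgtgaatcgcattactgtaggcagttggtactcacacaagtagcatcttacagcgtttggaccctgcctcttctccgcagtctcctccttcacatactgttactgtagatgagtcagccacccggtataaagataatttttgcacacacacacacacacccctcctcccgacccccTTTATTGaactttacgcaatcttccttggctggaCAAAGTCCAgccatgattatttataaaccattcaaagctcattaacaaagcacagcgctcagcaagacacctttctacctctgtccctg
Cyp2c65: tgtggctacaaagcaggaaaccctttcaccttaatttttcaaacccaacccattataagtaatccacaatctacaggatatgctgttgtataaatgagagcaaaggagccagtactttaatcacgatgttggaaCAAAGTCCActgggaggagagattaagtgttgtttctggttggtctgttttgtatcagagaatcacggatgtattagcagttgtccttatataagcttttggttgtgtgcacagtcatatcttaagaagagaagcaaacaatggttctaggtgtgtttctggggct
Ppp1r15a: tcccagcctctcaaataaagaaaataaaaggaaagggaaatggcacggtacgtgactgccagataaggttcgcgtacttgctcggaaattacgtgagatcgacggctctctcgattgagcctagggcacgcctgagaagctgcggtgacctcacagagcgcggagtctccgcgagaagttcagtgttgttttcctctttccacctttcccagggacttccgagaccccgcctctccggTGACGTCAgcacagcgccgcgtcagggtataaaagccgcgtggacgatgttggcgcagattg
In Alpi the HNF4 motif spans bases 232 to 240 of the sequence and the CDX2 motif bases 218 to 224, which places both within the last stretch before the start. Motifs were searched on both strands, and CAATAAA, another CDX2 motif searched, overlaps TTTATNG because its reverse complement is a case of it.

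A promoter was in the RefSeq table for 10050 tested genes, among them 1478 of those called lower, 979 of those called higher and 103 of the 128. CAAAGTCCA was in 0.478% of all these promoters, in 1.08% of those of genes called lower, in 0.409% of those of genes called higher and in 3.88% (4 promoters) of the group of 128. TTTATNG was in 7.05%, 10.4%, 6.13% and 19.4% of them in the same order, and TGACGTCA in 3.3%, 2.3%, 3.06% and 0%. A second HNF4 motif, CAAAGGTCA, was in 0.368%, 0.744%, 0.409% and 0% of them, and the AP-1 motif TGANTCA in 4.9%, 7.44%, 5.11% and 12.6%. The TEAD motif GGAATG was in 12.1% of all and 12.6% of the group, the NF-Y motif CCAAT in 39.1% and 37.9%, and CAATAAA, whose every match is also one of TTTATNG, in 2.68% and 9.71%. Both strands were searched. Median GC content was 61% over all these promoters and 56.3% in the group, and its part in the shares was not tested. Too few of the tested and called genes had an entry for a comparison between these sets, so that comparison is void and the shares describe the matched promoters alone. A match says only that these letters are present, and no match only that they are not in this window.

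Wider lists of enterocyte genes, which include some members of this group, fell as well. Of 16 tested brush border enzymes 15 were called lower and 0 higher at 10 against 5 µM. The list median was -3.15 on the log2 scale, beside a median near 0 over all tested genes. The background for this and each later list is 14.2% of all tested genes called lower and 9.3% higher. Solute carriers of the villus gave 17 of 20 lower with a median of -3.55, lipid absorption genes 15 of 17 with -3.30, and drug-metabolising cytochromes 13 of 16 with -3.53, and none of these lists had a member called higher. Each of these counts held at 13 or more when any 1 library or any 1 line was left out. The group that fell mostly at 10 µM supplied 3 of the brush border enzymes and 4 of the solute carriers. It also supplied 3 of the lipid absorption genes and 3 of the cytochromes. The rule chose these members by the same fall, so their calls as lower were fixed by it. Only the other members of each list add to what the group showed.

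The lists differed in how far they had moved before. Between DMSO and 5 µM the list median was -0.77 for brush border enzymes, -1.02 for solute carriers, -0.83 for lipid absorption and 0.10 for the cytochromes. Sis, the sucrase-isomaltase gene, was at 2764, 6023, 4749 and 4027 CPM with DMSO, 523, 1394, 1379 and 913 at 5 µM and 60.5, 142, 83.4 and 32.4 at 10 µM, so it had already fallen in all 4 lines before the last log2 change of -3.72 ± 0.27 (SE). Apoa4, a chylomicron apolipoprotein, was at 33.1, 108, 170.0 and 46.4 and then 1.86, 4.43, 4.57 and 1.99 CPM, and Fabp1, a fatty acid binding protein, at 21.6, 93.7, 103 and 29.4 and then 0.717, 9.33, 8.94 and 0. Both were far below their DMSO values, of 432 to 1089 and 529 to 1078, before the last step.

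Among all called genes at that level whose groups did not overlap, the 12 deepest falls included Dmbt1, Prap1, Alpi and Apoa4 from above. The others were Adh1, an alcohol dehydrogenase (-4.63), Muc2, the goblet cell mucin (-4.49), Slc26a3, the chloride-bicarbonate exchanger (-4.43), Adh6a, a further alcohol dehydrogenase (-4.39), Creb3l3, a transcription factor of lipid handling (-4.35), Akp3, a second intestinal alkaline phosphatase (-4.31), Reg3b, an antimicrobial lectin (-4.28), and Cldn15, a claudin that forms cation pores (-4.26), all as log2 fold changes. Akp3 and Alpi are near copies of each other, as are several Reg3 genes, and reads may have been shared between them.

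**Figure D3:**
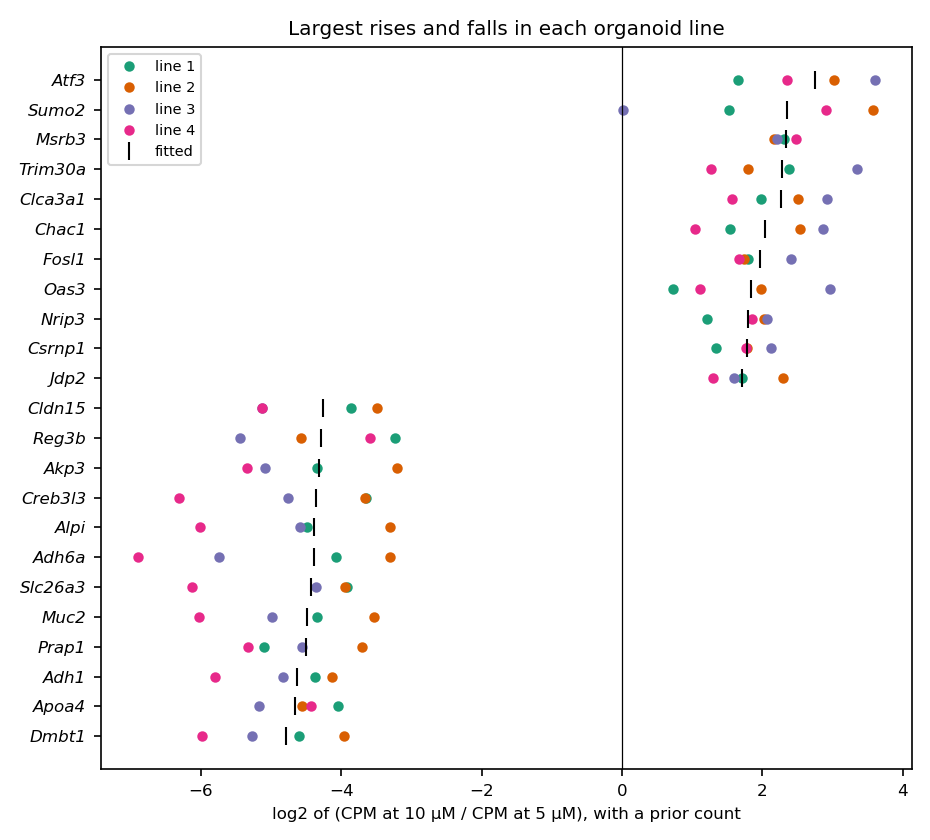
For the largest rises and falls at 10 against 5 µM that the text names, points show the log2 ratio of CPM at 10 µM to CPM at 5 µM in each line (x axis, computed with a prior count) and bars the fitted value. The falls lie to the left of -3 in all 4 lines, with line 4 lowest for most of them, and among the rises line 3 is the highest for Atf3, Trim30a, Chac1 and Oas3 and near 0 for Sumo2.

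Of the 16 cytochrome genes 7 were called higher at 5 µM than with DMSO, and some of these lost that rise at 10 µM. Cyp3a11 and Cyp2c55 are given here after their values were seen. Cyp3a11, a main drug-oxidising enzyme, was at 187, 501, 375 and 405 CPM with DMSO, 613, 1851, 1713 and 1427 at 5 µM and 70.5, 166, 94.7 and 58.8 at 10 µM. The fitted changes were 1.91 from DMSO to 5 µM and -3.78 from 5 to 10 µM, with edgeR adjusted p of 1.55e-05 and 2.79e-07. Cyp2c55 had changes of 2.07 and -4.04. Cyp3a11 shares long stretches with other Cyp3a genes, and its reads are uncertain for that reason. In the arginine pathway, Cps1, which makes carbamoyl phosphate for citrulline synthesis in enterocytes, was nearly gone, from 3576 to 4170.3 CPM with DMSO to 18.3 to 32.2 at 5 µM and 0.0663 to 1.55 at 10 µM.

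**Figure D4:**
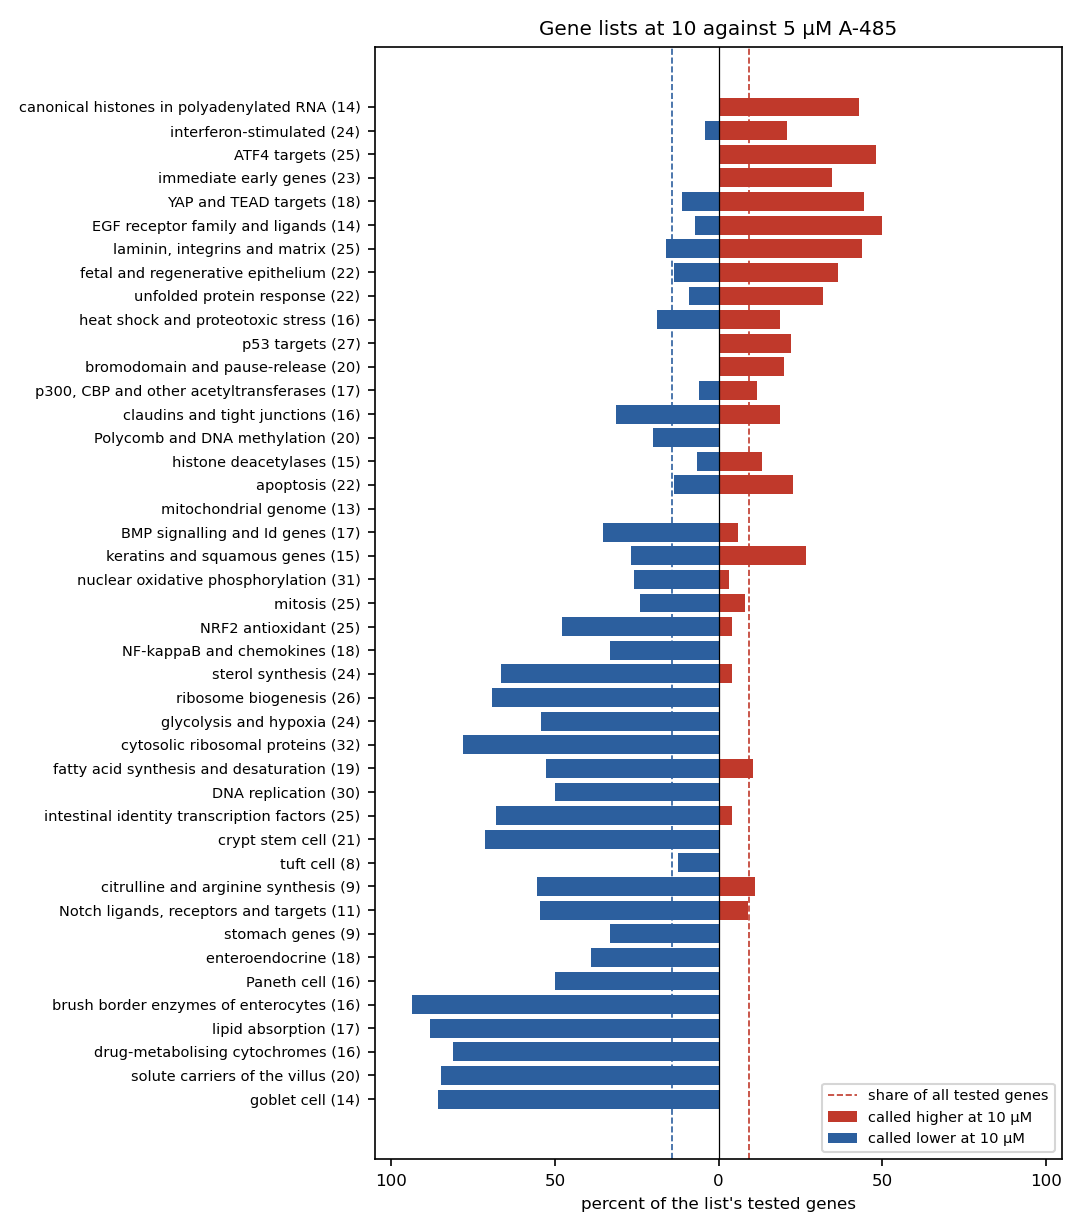
Bars give the percent of the tested genes of each list (their number in brackets) called higher (right, red) and called lower (left, blue) at 10 against 5 µM, with lists in the order of their median log2 fold change from the highest at the top, and dashed lines give the share of all tested genes called in each direction (9.3% higher, 14.2% lower). Enterocyte and goblet lists lie at the bottom with most members called lower, and the histone, interferon, ATF4 and immediate early lists lie at the top.

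Goblet cell genes fell mainly at the last step. Of 14 tested goblet genes 12 were called lower and 0 higher, with a median of -4.14, against a median of -0.87 between DMSO and 5 µM. At that earlier step 7 had been called lower and 2 higher. Muc2 was at 241, 157, 126 and 192 CPM with DMSO, 155, 135, 162 and 104 at 5 µM and 7.45, 11.5, 4.97 and 1.44 at 10 µM. Fcgbp, a mucus protein, was at 4775, 3573, 3589 and 2514 and then 222, 310.2, 200.2 and 127 CPM, with a log2 change of -4.11 ± 0.17 (SE, edgeR adjusted p = 4.51e-09). Tff3, a trefoil peptide of goblet cells, was called higher at 5 µM than with DMSO (0.50) and then changed by -2.61 ± 0.14. Its 5 µM values were 543 to 672 CPM and its 10 µM values 86.1 to 118. Spdef, a factor that matures goblet cells, was at 15.2 to 21.3 CPM with DMSO and 1.64 to 6.99 at 5 µM and left 5 reads over the 4 libraries at 10 µM. Atoh1, which specifies the secretory lineage, had a mean of 21.4 CPM with DMSO and 5.47 at 5 µM. It left 11 reads at 10 µM, all in line 1.

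Paneth cell genes had fallen earlier. The list of 16 tested genes had a median log2 change of -6.29 between DMSO and 5 µM and of -2.45 from 5 to 10 µM, with 8 called lower and 0 higher at the last step. Lyz1, the Paneth lysozyme, was at 938 to 1837 CPM with DMSO, 13.2, 12, 11.6 and 9.44 at 5 µM and 13, 5.84, 6.23 and 9.64 at 10 µM, with overlapping groups at the last step and an edgeR adjusted p of 0.234, which passed the threshold without line 1 and with no filter on low counts. Mmp7, the matrix metalloproteinase that activates defensins, was at 105 to 185 CPM with DMSO, 94.8, 60.1, 79.6 and 79.6 at 5 µM and 8.39, 4.09, 3.45 and 2.66 at 10 µM, a log2 change of -4.08 ± 0.21 (SE). Enteroendocrine genes gave 7 of 18 lower and 0 higher, a count that went down to 2 without line 1 and to 4 without line 2 or line 3. Chga, their chromogranin, was at 5.51, 3.47, 6.48 and 2.31 and then 0, 0.537, 1.39 and 0 CPM, and its call (adjusted p = 0.0266, edgeR) was lost when line 1, 2 or 3 was left out. The call was also lost without the 5 µM library of line 1 or 3 and without the 10 µM library of line 1, 2 or 4. The 8 tested tuft cell genes summed to only 2.97 to 7.03 CPM at 5 µM, and 1 of them was called lower at 10 µM.

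Crypt stem cell genes fell at both steps. Of 21 tested genes 15 were called lower and 0 higher from 5 to 10 µM, with a median of -1.40, after a median of -1.48 between DMSO and 5 µM. Lgr5, the receptor that marks these cells, was at 386 to 478 CPM with DMSO, 99.2, 88.6, 98.2 and 94.7 at 5 µM and 25, 12.1, 11 and 10.5 at 10 µM. Line 1 kept the most, and the log2 change was -2.71 ± 0.20 (SE, edgeR adjusted p = 2.91e-07). Olfm4, a secreted glycoprotein of the same cells (chr14:79984081-80023139), went from 5324 to 6449.6 CPM with DMSO to 45.7, 42.7, 54.8 and 44.6 at 5 µM and had no read in any library at 10 µM. Set against a floor of 3 reads over the 4 libraries, this was at least 829-fold lower than at 5 µM.

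Smoc2 and Sox9, further crypt genes, gave log2 changes of -2.36 ± 0.12 and -1.62 ± 0.14 (SE) at the last step. Myc, a Wnt target, was at 67.6, 80.5, 86.2 and 87.2 and then 65.2, 78, 77 and 68.6 CPM and was not called (adjusted p = 0.318, edgeR). In the Notch pathway, which keeps stem cells from becoming secretory, 6 of 11 tested genes were called lower and 1 higher. Dll1 and Jag1 encode ligands and Hes1 a target, with changes of -1.68, -1.85 and -0.67. Jag1 had been higher at 5 µM than with DMSO, at 22.3, 15.7, 22.9 and 15.6 CPM with DMSO, 35.5, 43.9, 30.1 and 42.3 at 5 µM and 11.5, 12.7, 7.55 and 10.4 at 10 µM, so that it ended below its DMSO level in all 4 lines.

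Ribosomal genes fell by smaller amounts and in most members. The background for the counts here is 14.2% of all tested genes called lower and 9.3% higher. Of 32 tested ribosomal protein genes 25 were called lower and 0 higher, with a median of -0.53, and of 26 ribosome biogenesis genes 18 were called lower and 0 higher, with -0.49. Both lists had fallen more between DMSO and 5 µM, each with a median of -1.04. At that earlier step 32 ribosomal protein genes and 25 biogenesis genes had been called lower. Npm1, a nucleolar chaperone, went from 348, 356, 339 and 356 to 219, 227, 218 and 241 CPM, a log2 change of -0.63 ± 0.08 (SE). DNA replication genes gave 15 of 30 lower and 0 higher with a median of -0.57, and 9 lower without line 1. The larger part of that list's change lay below 5 µM, with a median of -1.65 between DMSO and 5 µM. Mitosis genes were mixed, with 6 of 25 lower, 2 higher and a median of -0.29, with 0 lower without line 1 and 2 lower without line 2. Their median had been -1.74 between DMSO and 5 µM. Mki67, the proliferation marker, was at 88.8, 79.8, 76.5 and 148 CPM and then 34.9, 58.1, 77.1 and 81.6, about level in line 3. Its call (adjusted p = 0.0109, edgeR) was lost without the pairing by line, without line 1, 2 or 4 and in a fit of the 8 libraries alone.

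The transcription factors of intestinal identity fell by unequal amounts. Of 25 tested factors 17 were called lower and 1 higher, with a median of -0.92. Cdx1, a caudal homeobox factor, had the largest fall among them, from 87.9, 91.8, 99 and 45.4 to 11.1, 8.25, 7.16 and 3.88 CPM (-3.39 ± 0.19, SE). Cdx2, its paralog, went from 144, 136, 147 and 127 to 90.4, 75.1, 88.2 and 71.2 CPM (-0.78 ± 0.14) and Hnf4a from 655, 594, 688 and 599 to 428, 378, 402 and 341 (-0.71 ± 0.08). Both were lower in every line, without overlap between doses and by less than Cdx1. Gata4, a zinc finger factor of the proximal gut, was at 184, 222, 254 and 183 and then 188, 194, 209 and 173 CPM and was not called (adjusted p = 0.307, edgeR). Isx, an intestinal homeobox factor, changed by -2.27, and Klf5 and Elf3, epithelial factors, by -0.58 and -0.81.

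Among the rises, Atf3, a stress-induced factor of the ATF family (chr1:191170296-191218039, minus strand), was the largest under the same level and overlap limits as the falls. It was at 7.4, 4.16, 6.62 and 6.11 CPM with DMSO, 11.2, 6.86, 7.57 and 8.58 at 5 µM and 35.4, 57, 93.9 and 44.2 at 10 µM. The lowest value at 10 µM was above all values at lower doses, and the log2 change was 2.75 ± 0.26 (SE, edgeR adjusted p = 1.52e-06), against 0.50 with 0.142 from DMSO to 5 µM. The difference between these steps was itself called (adjusted p = 0.0035, edgeR). Atf3 did not meet the rule for genes that rose mostly at 10 µM because its intervals at 3 and 5 µM went just past a log2 change of 1 in size.

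Targets of ATF4, the factor induced when translation initiation is restrained by stress, rose in part. Of 25 tested, Atf3 among them, 12 were called higher, 0 lower and 13 neither, beside 9.3% of all genes called higher, with a median of 0.69 against -0.24 between DMSO and 5 µM. The count was 6 without line 2 and 5 without line 3. Chac1, a glutathione-degrading enzyme, was at 6.12, 4.99, 5.32 and 6.46 CPM at 5 µM and 18.1, 29.7, 39.6 and 13.4 at 10 µM, higher in every line. The call (adjusted p = 0.00964, edgeR) was lost without line 2, without line 3 and without the 5 µM library of line 3. Ppp1r15a, a phosphatase subunit that restores initiation, rose by 1.50 ± 0.24 (SE), with 5 µM values of 8.58 to 15.7 CPM and 10 µM values of 23.9 to 42.5.

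Several genes of this pathway had fallen at 5 µM and came back at 10 µM. Psat1, an enzyme of serine synthesis, was at 286, 237, 219 and 262 CPM with DMSO, 117, 104, 74.6 and 125 at 5 µM and 171, 201, 200.2 and 212 at 10 µM. The step down was -1.27 and the step up 0.92 ± 0.11 (SE), with edgeR adjusted p of 9.71e-08 and 1.18e-05, and all 4 lines stayed below their DMSO value. Trib3, a pseudokinase of the same response, went the same way, by -1.18 and then 1.49, its second call being lost without line 2 or line 3. Of 22 unfolded protein response genes 7 were called higher and 2 lower, beside 9.3% and 14.2% of all tested genes. The count of 7 was 13 when library totals replaced TMM scaling, 11 with DESeq2, 12 without line 4 and 4 without line 3. Hspa5, the chaperone BiP, went from 557, 563, 566 and 601 to 702, 945, 1059.5 and 963 CPM (0.67 ± 0.09, SE). Ern1, a sensor of this response, rose by 0.50 on the log2 scale, and its goblet cell paralog Ern2 changed by -4.24.

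Immediate early genes, which are switched on by growth factors and stress, gave 8 of 23 higher and 0 lower. The count of 8 was 5 without line 3 and 4 without line 2. Without line 4, 11 were higher and 1 lower, and in the fit of the 8 libraries alone 11 were higher and 3 lower. Egr1 went from 185, 152, 146 and 175 to 377, 313, 388 and 344 CPM, after 17.3 to 25 with DMSO. Fosl1, a component of AP-1, rose by 1.96 ± 0.32 (SE), with 5 µM values of 4.18 to 7.11 CPM and 10 µM values of 13.9 to 24.2. Fos was at 159, 123, 123 and 153 and then 172, 159, 173 and 159 and was not called (adjusted p = 0.133, edgeR), though it was called higher without line 4 and in a fit of the 8 libraries alone. Jun was at 0.60, a call (adjusted p = 0.0243, edgeR) that was lost without the pairing by line and without line 2 or line 3. The call was also lost without the 5 µM library of line 3 or 4 and without the 10 µM library of line 2 or 3.

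The other large rises, all as log2 fold changes from 5 to 10 µM, included Sumo2 (2.35), Msrb3, a methionine sulfoxide reductase (2.33), Trim30a (2.28), Clca3a1 (2.26), Oas3, an antiviral oligoadenylate synthetase (1.84), Nrip3 (1.79), Csrnp1 (1.78) and Jdp2, an AP-1 partner (1.70). These genes were named only if their groups did not overlap. Msrb3 was at 3.15, 4.82, 2.99 and 3.28 and then 16.2, 22.2, 14.3 and 19.1 CPM, with a similar rise in each line. Sumo2 was at 6.05, 7.96, 8.59 and 5.97 and then 17.8, 96.8, 8.68 and 45.8 CPM, with a rise in lines 1, 2 and 4 and level values in line 3, and it has near-identical copies in the genome that make its reads uncertain. Its call (adjusted p = 0.0134, edgeR) was lost without line 4, without the 5 µM library of line 2 and in a fit of the 8 libraries alone, which also ended that of Oas3. The calls of Csrnp1 and Jdp2 were lost in 7 and 8 of the fits that left out a library or a line.

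Interferon-stimulated genes had risen by 5 µM, where 19 of 24 tested were called higher than with DMSO, beside 26.3% of all tested genes. Some rose further. At the last step 5 were called higher and 1 lower, beside 9.3% and 14.2% of all tested genes, with a median of 1.04. The count of 5 went to 2 without line 3, 3 without its 10 µM library, 8 without line 4, 9 with DESeq2's Wald test and 16 with no filter on low counts. Oas1a went from 17.4, 21.7, 29.5 and 25.2 to 39.1, 47.2, 90.1 and 38.3 CPM and Usp18, a deubiquitinase of the pathway, from 4.12, 3.13, 1.46 and 1.64 to 12.5, 10.9, 30.1 and 4.32. Line 3 was the highest at 10 µM for both, and the call of Usp18 was lost without line 3 and without its 10 µM library. Ifi27 rose by 1.27 ± 0.19 (SE), with 5 µM values of 29.8 to 40.0 CPM and 10 µM values of 72.1 to 97.8.

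Genes of the fetal-like and injury-response state split at the last step. The list of 22 tested genes had a median of 2.26 between DMSO and 5 µM and of 0.26 from 5 to 10 µM, where 8 were called higher and 3 lower. Krt7, a keratin, went from 1428, 1480.3, 1239 and 1276 to 2164, 2746, 2407 and 1790.4 CPM and rose by 0.74, and Tnfrsf12a, the TWEAK receptor, rose by 1.23. Ly6a, which encodes Sca-1, and Clu, clusterin, were not called, at 419.5, 435, 229 and 559 and then 245, 309, 246 and 244 CPM for Ly6a (adjusted p = 0.0893, edgeR) and 412, 371, 298 and 429 and then 359, 440.2, 340.3 and 349.6 for Clu (0.932). Ly6a was called lower with DESeq2, with no filter on low counts, without line 3 and without the 10 µM library of line 3.

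Some genes that had risen by 5 µM fell back, and not all of those named here belong to that state. Il1rn, the interleukin 1 receptor antagonist, was at 39.4, 23, 10.7 and 12.6 CPM with DMSO, 134, 60.0, 53.2 and 63.1 at 5 µM and 28.4, 11.9, 14.1 and 11 at 10 µM. Its log2 change was 1.92 from DMSO to 5 µM and -2.23 ± 0.18 (SE) from 5 to 10 µM, and at 10 µM it did not differ from DMSO at the threshold (adjusted p = 0.144, edgeR). Over the same steps Anxa10, an annexin, changed by 2.42 and then -1.85, Krt20, a keratin of mature surface cells, by 1.97 and -1.50, and Ly6d, a squamous marker, by 9.47 and -1.92. Among all 226 genes that were called higher at 5 µM and lower from 5 to 10 µM, 125 had also been called higher at 3 µM, 54 remained above DMSO at 10 µM and 66 were called below it. Of the 64 with the opposite course, 17 remained below DMSO and 4 were called above it.

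**Figure D5:**
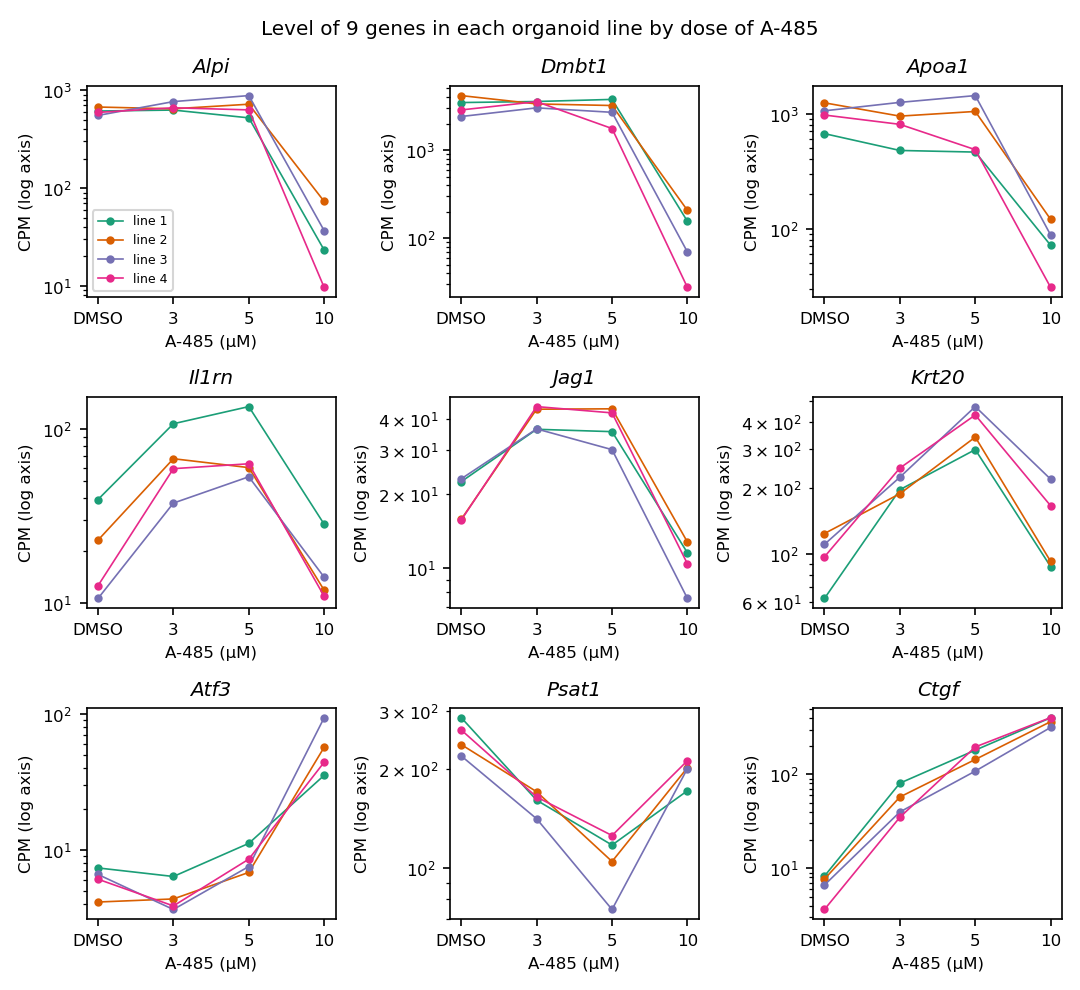
Each panel gives the CPM of a gene (y axis, log scale) in each of the 4 lines with DMSO and with 3, 5 and 10 µM of A-485 (x axis). The genes of the top row fall mostly at 10 µM, with an earlier drop in line 4 for Apoa1 and Dmbt1, those of the middle row rise and then fall, and in the bottom row Atf3 rises at 10 µM, Psat1 is lowest at 5 µM and Ctgf climbs at each dose.

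Targets and partners of YAP, the growth regulator that acts through TEAD factors, gave 8 of 18 higher and 2 lower with a median of 0.50. Ctgf and Cyr61, the best known targets, were counted outside this list because it held them under other symbols. Ctgf went from 181, 144, 108 and 196 to 401, 365, 316 and 403 CPM (1.25 ± 0.20, SE, edgeR adjusted p = 0.000465) and Cyr61 from 43.5, 47.5, 22.9 and 53.7 to 101, 126, 128 and 103 (1.50 ± 0.28). Tead1 itself rose by 0.98. Laminins, integrins and matrix genes gave 11 of 25 higher and 4 lower, with Itgb1, the common integrin chain, going from 836, 797, 720.4 and 906 to 1403, 1336, 1352 and 1437 CPM.

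EGF receptor genes and ligands gave 7 of 14 higher and 1 lower, with 3 higher without line 3 and 4 without line 2. Hbegf and Btc encode ligands and rose by 1.06 and 0.89. In the BMP pathway, which opposes the stem cell state, 6 of 17 were called lower and 1 higher. The background for both lists is 14.2% of all tested genes called lower and 9.3% higher. Bmp7 went from 20.3, 13.8, 17.3 and 11.8 to 4.52, 5.1, 6.29 and 4.32 CPM.

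Genes of the acetylation machinery moved little. Of 17 tested acetyltransferases and partners 2 were called higher (Kat2b 0.59, Ncoa3 0.36) and 1 lower (Cited2, an inhibitor of p300 recruitment, -0.86), close to the background. The call of Kat2b was lost without line 3 and that of Ncoa3 without line 1, 2 or 3. That of Ncoa3 was also lost without the 5 µM library of line 1 or 3 and without the 10 µM library of line 2 or 3. Of 15 histone deacetylases 2 were called higher and 1 lower, beside 9.3% of all tested genes called higher and 14.2% lower. Of 20 bromodomain and pause-release genes 4 were called higher and 0 lower, and Brd2, a reader of acetylated histones, went from 307, 280.2, 286 and 321 to 510.2, 561, 611 and 509 CPM (0.87 ± 0.11, SE). Histone genes in polyadenylated RNA gave 6 of 14 higher and 0 lower with a median of 1.20, with 2 higher without line 3 and 3 without its 5 or 10 µM library. Hist1h1c, a linker histone, went from 248, 211, 199 and 173 to 474, 470.3, 484.97 and 372 CPM. Its DMSO values were 24.8 to 37.6. Copies of histone genes are much alike, so reads of single members are uncertain.

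Metabolic genes fell in larger shares than the background. Of 24 sterol synthesis genes 16 were called lower and 1 higher with a median of -0.48, of 19 fatty acid genes 10 lower and 2 higher with -0.54, and of 24 glycolysis and hypoxia genes 13 lower and 0 higher with -0.52. These lists had fallen before, with medians of -0.60, -0.78 and -0.74 between DMSO and 5 µM. At that earlier step 16, 13 and 17 of their members had been called lower. Scd1, a fatty acid desaturase, went from 312, 402, 497 and 362 to 92, 109, 93.7 and 88.3 CPM (-2.02 ± 0.13, SE), and Ndrg1, a hypoxia-induced gene, from 331, 298, 576 and 259.7 to 67.9, 73.9, 80.1 and 75.3 (-2.26 ± 0.16). Insig1, a sterol sensor, fell with a log2 change of -1.03. Antioxidant genes of the NRF2 pathway gave 12 of 25 lower and 1 higher. Gpx2, the gut glutathione peroxidase, went from 154, 149.6, 152 and 104 to 19.3, 18.4, 13.1 and 12 CPM (-3.15 ± 0.13, SE, edgeR adjusted p = 1.23e-10), and Gsta3, a glutathione transferase, changed by -3.72.

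Of 31 nuclear genes of oxidative phosphorylation 8 were called lower and 1 higher, beside 14.2% and 9.3% of all tested genes. The count of 8 was 4 without line 2 or line 3, 14 without line 4 and 17 in a fit of the 8 libraries alone. The list median was -0.731 between DMSO and 5 µM and -0.235 at the last step. Of 27 p53 target genes 6 were called higher and 0 lower, beside the same background. The count of 6 was 2 without line 2 or line 3, 10 without line 4 and 3 without the pairing by line. Cdkn1a, the p21 cell cycle inhibitor, was at 351, 286, 268 and 249 CPM and then 273, 307, 290.2 and 232 and was not called (adjusted p = 0.792, edgeR), while Rrm2b, a p53-induced ribonucleotide reductase subunit, rose by 1.18 ± 0.21 (SE).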

How the data were processed

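RNA was measured by poly(A)-selected, dUTP directional RNA-seq, per the labels' protocols. The authors deposited raw read counts of 54532 genes for the dose series together with some other organoid libraries. The 16 libraries of the dose series were used. Reads were aligned with HISAT2 2.0.5 to GRCm38/mm10, per the submitters' processing notes, while the counting program, its strand setting and the annotation are not given in the sources used here, so reads of overlapping or near-identical genes are uncertain. Counts were fitted with edgeR 4.0.16 (filterByExpr, TMM scaling, quasi-likelihood test, Benjamini-Hochberg adjustment over 13724 genes) in R 4.3.3, with dose and line as terms. CPM are counts scaled to a common TMM-adjusted library size, and a fold change of a gene with no reads uses a floor of 3 reads over the 4 libraries. The numbers in the labels mark the lines, and 5 and 10 µM libraries of the same line deviated together (correlations of 0.2, 0.235, 0.171 and 0.241). In simulated counts at these depths the fit called 31 of 50 genes changed by 1 and 42 of 50 changed by 2 upward on the log2 scale. Downward it called 35 and 42 of 50, and there were 2 false calls in all. The simulation changed far fewer genes than the data did, as many up as down. It held no differences between lines or among the lower doses, so it does not give the error rate in these data. Genes were named as the 12 largest changes in each direction at a mean log2 CPM of at least 3 without overlap, the 10 largest falls of the group that fell mostly at 10 µM, and the leading or best known members of each list. The comparison and the gene lists were chosen with earlier results of these data known. DESeq2 1.42.0, other scalings, filters and left-out libraries served as alternatives. A few genes that met these rules are not reported here. Other libraries of the study were not analysed here.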

Additional observations from a re-analysis of the deposited data

Results flagged for a closer look

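In 19 of 244 groups of 4 libraries looked at, over the genes named above and the library measures, a single library stood apart from the other three, a gap that chance alone gives in about 1 in 20 groups. Line 4 stood apart in several of them. Its mitochondrial share was 3.438% at 5 µM (others 2.267 to 2.459%) and 3.227% at 10 µM (2.146 to 2.25%), and its 10 most abundant genes took 5.561% of the reads at 10 µM (4.962 to 5.01%). In CPM, line 4 was high for Eif4g2 at 5 µM (1419 against 1122 to 1159) and low for Cd14 (16.575 against 20.17 to 20.314), Gpx2 (104 against 149.6 to 154) and Tff3 (543 against 658 to 672) at 5 µM and for Hist1h1c at 10 µM (372 against 470.3 to 484.97).

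Line 1, the one labelled Eif4g2(+/+), was high for Il1rn at 5 µM (134 against 53.2 to 63.1 CPM), Lgr5 at 10 µM (25 against 10.5 to 12.1) and Atoh1 at 10 µM (0.788 against 0), and low at 5 µM for Slc13a1 (48.0 against 108 to 118) and Sult1b1 (62.0 against 107 to 116). Line 2 was high for Adh6a (8.19 against 0.222 to 1.39) and Ly6a (309 against 244 to 246) at 10 µM and for Fosl1 (7.11 against 4.18 to 4.24) and Msrb3 (4.82 against 2.99 to 3.28) at 5 µM. Line 3 was high at 10 µM for Ern2 (0.994 against 0 to 0.134) and Ezh2 (25.8 against 21.6 to 22.2).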

How the results depend on the processing

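The count of genes called at 10 against 5 µM was 3228, and the other tools, scalings, filters and the fit of the 8 libraries alone gave 2592 to 3941. The fit with no replicate block, that is without the pairing by line, gave 2592 calls (884 higher, 1708 lower), 83 genes that fell and 2 that rose mostly at 10 µM, and 38 rather than 64 genes called higher after a fall at 5 µM. The count of 1 gene that rose mostly at 10 µM became 2 with DESeq2 size factors, 2 with library totals, 3 with DESeq2's Wald test, 5 with no low-count filter and 0 with the bound of ±0.5, which left 10 falls. The fit of 8 libraries could give no value for genes that moved mostly at 10 µM, since it holds no DMSO libraries. Leaving out 1 library or 1 line (lines 2, 3 and 4 being left out as alternatives chosen after seeing the data) gave 1816 to 4265 called genes, 523 to 1919 higher, 1293 to 2346 lower, 74 to 147 that fell mostly at 10 µM and 1 to 5 that rose mostly there. The rises that were called at 5 µM the same way numbered 421 to 1384, not called there 86 to 418 and the opposite way 16 to 117, and the falls 800 to 1489, 342 to 593 and 145 to 264. Of 2106 values of 117 named genes over these settings 64 lost their call, 11 gained one and 9 changed sign, all in 21 genes. The sign changes were in genes that were not called: the log2 change of Clu was 0.0254 with library totals and, leaving out 1 library or line, ranged from -0.1159 to 0.1325, that of Crebbp from -0.0284 to 0.0911 and that of Cdkn1a from -0.1169 to 0.037. The cause of these shifts was not tested. Depth limits genes near 0 at 10 µM, such as Olfm4, to a lower bound of the fall.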

Other observations

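The counts of other gene groups at the last step are given beside 9.3% of all tested genes called higher and 14.2% called lower, and several lie near these shares. Chemokine and NF-kappaB genes gave 6 of 18 called lower and 0 higher, with 2 lower without line 2 and 3 without line 3, and among them Ccl25, which draws lymphocytes to the small intestine, went from 30.4, 71.9, 72.2 and 34.3 CPM in lines 1 to 4 at 5 µM to 4.8, 10.8, 6.29 and 1.44 at 10 µM (-3.12 ± 0.31, SE). Il18, an epithelial cytokine, changed by -2.02. Of 16 claudins and tight junction genes 5 were called lower and 3 higher, with 0 higher without line 3. Of 15 keratins and squamous genes 4 were called lower and 4 higher, and 2 higher without line 1, 2 or 3: Krt8 and Krt18, a pair of simple epithelial keratins, rose by 0.26 and 0.56, the call of Krt8 being lost without line 1, 2 or 3 and without the pairing by line. That call was also lost without any 1 of the 5 µM libraries and without the 10 µM library of line 2 or 3. Of 9 stomach genes 3 were called lower and 0 higher.

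Of 16 heat shock genes 3 were called higher and 3 lower, with 5 higher by DESeq2's Wald test and without line 4 and 6 higher in the fit of the 8 libraries alone. The mitochondrial co-chaperone gene Hspe1 changed by -0.75. Of 20 Polycomb and DNA methylation genes 4 were called lower and 0 higher, among them Ezh2, the histone methyltransferase, at -0.64, and the counts were 2 lower without line 3 and 3 higher without line 4. Of 22 apoptosis genes 5 were called higher and 3 lower, and 0 lower without line 3. Cflar, an inhibitor of caspase 8, rose by 0.66 ± 0.12 (SE). In the citrulline and arginine pathway 5 of 9 genes were called lower and 1 higher.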
